A study of Caenorhabditis elegans with 4 samples.

Results

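The regions described here are the peaks called for GEI-11 on chromosome III of Caenorhabditis elegans, 351 of the 2811 in the authors' combined list. They were taken by position alone, as every peak that the list places on that chromosome. ChIP-seq (chromatin immunoprecipitation followed by sequencing) was run on young adult hermaphrodites of the strain OP179 grown at 20 °C. The design has 2 ChIP samples, collected with an antibody against GFP, and 2 input samples of total chromatin, and a peak list was used for each ChIP replicate and for both combined. Both kinds of sample came from this strain, whose worms carry the unc-119(ed3) allele on chromosome III itself and the bombarded transgene wgIs179, made of a rescuing unc-119(+) copy and a gei-11 gene fused to TY1, EGFP and a triple FLAG tag. All peaks are therefore calls for the tagged protein from a transgene, whose copy number is not given in the sources used here. Whether each peak is a binding site was not tested. The labels do not say whether the replicates are separate cultures, so the spread between them may be technical.

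GEI-11, also called SNPC-4, is the worm counterpart of the largest subunit of SNAPc, the small nuclear RNA activating protein complex. SNAPc binds a short element upstream of small nuclear RNA (snRNA) genes, whose products splice messenger RNA, and places RNA polymerase there. In worms the protein also acts at the genes of spliced leader RNAs, which are joined to the front of many messenger RNAs, and at those of piRNAs, small RNAs of the germline. Most piRNA genes lie on chromosome IV, and chromosome III carries few. The RefSeq gene table of the assembly WBcel235 lists 78 piRNA genes on chromosome III, of 15363 on the 6 chromosomes. It lists 13 of 129 snRNA genes there, and 6 of these 13 are among the 18 named sls-2, which encode the SL2 spliced leader RNAs. The peaks are placed on the older build WormBase WS220, so none was assigned to a gene and all are given by position.

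Peak strength is given as −log10 of the q-value that the authors' peak caller, PeakSeq, deposited for each peak. It measures how surely a peak stands above background and depends on sequencing depth as well as on binding. Read depth is not given in the sources used here. Peaks of a list share their libraries, and neighbours are not independent, so no test over peaks was run. Shares carry exact Clopper-Pearson 95% intervals, medians exact order-statistic intervals and density ratios exact conditional binomial intervals, all of which cover counting error only.

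Peak strength on chromosome III was strongly skewed, with few peaks holding much of the summed value. The values of the 351 peaks ran between 2.02 and 161, with a median of 3.22 (2.94 to 3.43). Only 32 peaks reached 10 and 10 peaks reached 50. The 10 sites past 50 held 39.1% of the summed −log10 q of the chromosome.

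The strongest site spanned 10989190 to 10989972, 783 bp, and its −log10 q was 161 (combined list), 36.7 (ChIP replicate 1) and 150 (ChIP replicate 2). It ranked 4 in the whole series. It stood alone, with the nearest other peak 17657 bp away. The site of rank 2 spanned 12249897 to 12250867, with values of 140, 33.6 and 126 in the same order of lists. It was the most isolated of the first 10, since its nearest neighbour lay 54179 bp off and a stretch of 247 kb to its left held no peak. In both replicate lists these 2 sites were also the strongest of the chromosome.

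The sites of ranks 3 and 4 lay near the middle of the chromosome, 136 kb apart. The site at 7278284 to 7278891 had 115 in the combined list, against 18.8 and 106 in replicates 1 and 2. By ratio it differed most between the replicates of all sites found in both, with a replicate 2 value 5.63 times that of replicate 1, although the sites of ranks 1 and 2 had larger differences in −log10 q. The site at 7141041 to 7142427 had 113 in the combined list and, at 1387 bp, was the widest on the chromosome. Each replicate list split it into 2 peaks, with values of 20.4 and 9.39 in replicate 1 and of 51.2 and 32.1 in replicate 2. Its combined value was 2.20 times the higher value of replicate 2, the highest such ratio on the chromosome, against a median of 1.20 (1.18 to 1.22) over the 252 of 351 peaks found in replicate 2, where 72.6% of all combined peaks were found. A further strong peak, 7140158 to 7140751, lay 289 bp to its left with a combined value of 37.7 and replicate values of 10.3 and 26.7. These 2 combined peaks, 3 in either replicate, lay within 2270 bp.

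Ranks 5 to 10 were found in both replicates as well. The site at 11090085 to 11091267, the second widest at 1183 bp, had a combined value of 109 and replicate values of 29.6 and 80.9. The site at 5080685 to 5081372 had 96.2 combined, then 17.7 and 84.4. At 11463490 to 11464089 they were 70.4, 21.3 and 51.9, and at 9717014 to 9717510 they were 69.8, 19.4 and 51.3. The remaining 2 of the first 10 lay 12.4 kb apart in the left part of the chromosome. The peak at 4413830 to 4414330 had a combined value of 62.7 and replicate values of 11.8 and 51.9, and that at 4426756 to 4427316 had 51.6, 9.39 and 44.1.

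The values went on falling below rank 10. Rank 11 is the neighbour of the widest site given above. The combined values of ranks 12 to 15 were 33.1 at 5653724 to 5654191, 29.4 at 11117899 to 11118388, 28.7 at 9408233 to 9408670 and 25.8 at 11371939 to 11372837. Their values were 6.01 to 9.14 in replicate 1 and 18.0 to 22.9 in replicate 2. All of the 15 strongest were in both replicate lists, as were 10.2% of all combined peaks, and 14 of them were also among the 15 strongest chromosome III peaks of replicate 2. The third list is named as a combination of the replicates, so the match of ranks is a description only.

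**Figure D1:**
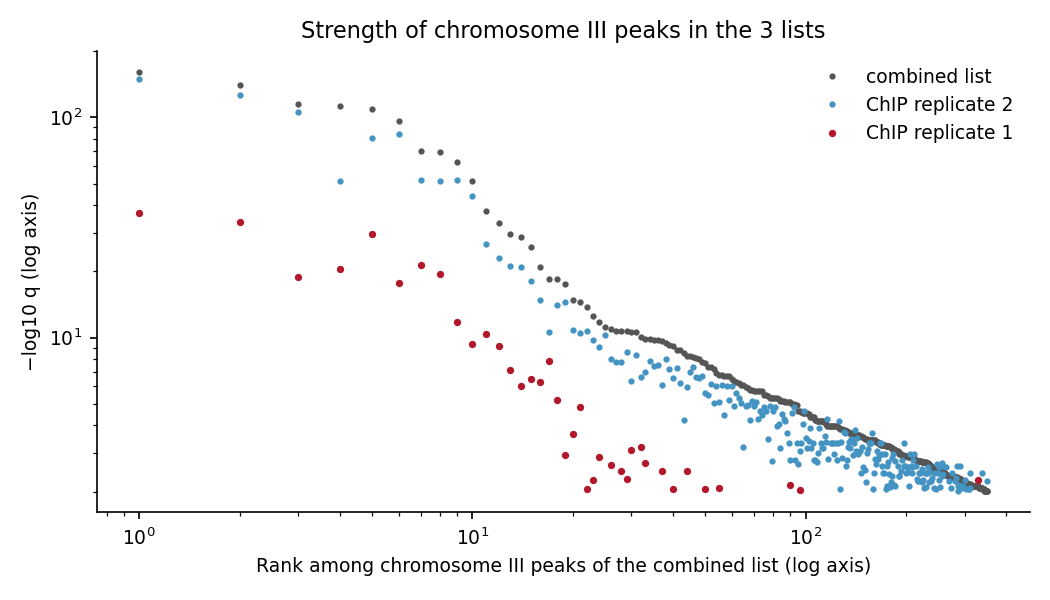
Strength of the 351 chromosome III peaks (−log10 q, log axis) against their rank in the combined list (log axis), with grey points for the combined list, blue for ChIP replicate 2 and red for ChIP replicate 1. Red points are present for each of the first 24 ranks and thin out below, and they lie under the blue points at all 37 sites found in both replicates.

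The strongest sites lay away from the left end of the chromosome, where peaks of any strength were also few. Positions are given along an extent of 13.8 Mb, the distance to the end of the last chromosome III peak in any list, divided into 3 equal parts of 4.59 Mb. Of the 15 strongest peaks, 2 lay in the left part, 5 in the middle and 8 in the right. These parts held 22.8%, 39.0% and 38.2% of all 351 peaks. None of the 15 lay in the first 3.5 Mb, which held 11.1% of all peaks. The 2.00 Mb between 10.5 and 12.5 Mb, a stretch noticed in the data, held 6 of the 15, beside 68 of all 351 peaks, within 14.5% of the extent. The same stretch held 9 of the 32 that reached 10. The share of peaks that reached 10 was similar in the 3 parts, with 7 of 80 on the left (8.75%), 12 of 137 in the middle (8.76%) and 13 of 134 on the right (9.70%). Median strength was similar too, at 3.14 (2.78 to 3.60) on the left, 3.26 (2.94 to 3.70) in the middle and 3.15 (2.71 to 3.53) on the right. The parts thus differed in the number of peaks, while typical strength differed by less than the intervals. The split of the 15 strongest rests on few sites and was not tested against the shares of all peaks.

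In the left part the leading sites were the pair at 4.4 Mb, and between the first site past 10, at 349484 to 350260, and the next, at 2785864 to 2786193, lay 2436 kb. The first had a combined value of 10.96 and replicate values of 2.64 and 8.01, and the second had 10.7, 2.27 and 8.58. Across the chromosome the median distance between successive sites past 10 was 254 kb. Near the right end the last such site, 12904909 to 12905301, had a combined value of 17.6 and replicate values of 2.94 and 14.5.

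Counts of peaks showed a sparse left end rather than a symmetric drop on both arms. Chromosome arms of the worm are rich in repeats and recombine often, and the centres hold most of the widely expressed genes. The first 7 bins of 0.5 Mb, up to 3.5 Mb, held 3 to 9 combined peaks each, with a median of 5. The 20 full bins to their right held 9 to 24, with a median of 14.5. In the combined list the ranges met at 9 peaks and did not otherwise overlap. In the replicate lists they overlapped, with 0 to 1 against 0 to 7 in replicate 1 and 3 to 8 against 4 to 19 in replicate 2. The replicate 1 median was 1 in both sets of bins, and the replicate 2 medians were 4 and 10.5. Density was 11.1 peaks per Mb in the first 3.5 Mb and 30.4 per Mb in the rest, a ratio of 0.367 (95% CI 0.256 to 0.512). With 4 peaks against 35 the replicate 1 ratio was 0.335 (0.0865 to 0.937), and with 34 against 230 the replicate 2 ratio was 0.433 (0.293 to 0.623). The boundary at 3.5 Mb was set after the counts had been seen, so the bin ranges and these intervals overstate how well the step is defined.

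By equal parts, the middle held 137 of 351 combined peaks, 39.0% (33.9 to 44.4), the right 134, 38.2% (33.1 to 43.5), and the left 80, 22.8% (18.5 to 27.5). Density was 29.9 peaks per Mb in the middle, 29.2 on the right and 17.4 on the left. Replicate 1 had 15 peaks in the middle, 16 on the right and 8 on the left, and replicate 2 had 105, 97 and 62. With the centre taken as the middle 50% of the extent, it was 1.47 times (1.18 to 1.83) as dense as the ends together, and as the stretch from 4 to 10 Mb it was 1.38 times (1.11 to 1.71) as dense. For the middle part the ratio was 1.28 (1.03 to 1.59). For the equal parts, this excess comes from the left, since the right part was about as dense as the middle. The other ratios also pool a sparse left end with a dense right end. Of the 142 peaks outside the middle 50%, only 37 lay in the first 25% of the extent. Full bins held 10 to 24 peaks from 4 to 10 Mb, 9 to 24 beyond 10 Mb and 3 to 18 before 4 Mb.

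A sparse left end was not seen on chromosome III alone. The first 25% of the extent held 37 of its 351 peaks, 10.5% (7.53 to 14.2), and 45 of 382 on chromosome II, 11.8% (8.72 to 15.4). The share was 19.3% (15.7 to 23.4) on chromosome V, 24.1% (17.3 to 32.0) on I, 26.6% (22.4 to 31.1) on the X and 5.87% (4.55 to 7.44) on IV. The interval for chromosome III overlapped that for II, lay below those for V, I and X and lay above that for IV. These are shares of each chromosome's own peaks, so they do not rank the left ends by density. On IV, 73.9% of the peaks lay in the right part. By number, the first 25% held 37 peaks on III, 34 on I, 45 on II, 64 on IV, 83 on V and 111 on the X. The extents were 13.8, 15.1, 15.3, 17.5, 20.9 and 17.6 Mb in the same order. In the middle part, the 39.0% of chromosome III stood beside 41.3% (36.6 to 46.1) on V, 34.6% (29.8 to 39.6) on II, 33.3% (25.6 to 41.8) on I, 21.8% (17.9 to 26.0) on the X and 13.3% (11.3 to 15.5) on IV.

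**Figure D2:**
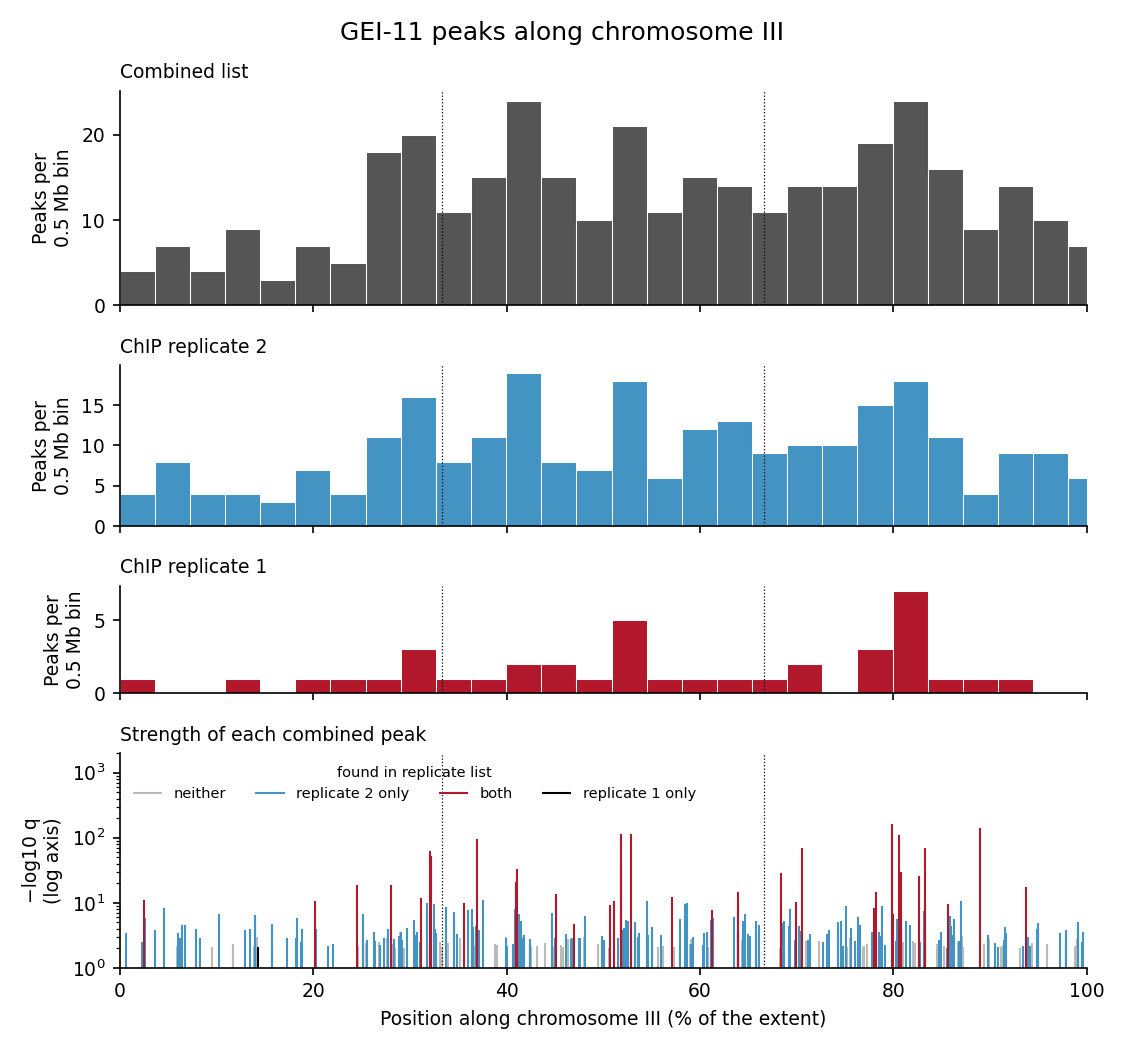
Peaks per 0.5 Mb bin along chromosome III (position as % of the extent) in the combined list, ChIP replicate 2 and ChIP replicate 1, and below them the −log10 q of each combined peak (log axis), coloured by the replicate lists in which it was found. Dotted lines part the 3 equal parts, and the last bin is shorter than the others. The first 7 bins hold 3 to 9 combined peaks each, while the tallest lines stand in the middle and right parts.

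The 2 fullest bins, with 24 combined peaks each, were unlike in strength. The bin from 11 to 11.5 Mb had a median −log10 q of 4.77 and 5 peaks past 10. It held 7 replicate 1 peaks, the most of any bin, and 18 of replicate 2. Its 3 strongest were the peaks at 11090085, 11463490 and 11117899 given above. The bin from 5.5 to 6.0 Mb had a median of 2.89, 2 peaks past 10, 2 replicate 1 peaks and 19 of replicate 2. Its leading peaks were the one at 5653724 given above, then 5637274 to 5637633, with a combined value of 21.0 and replicate values of 6.28 and 14.8. Next came 5632437 to 5632833, which had 8.04 and was in replicate 2 (6.53) but not in replicate 1. The bin from 7.0 to 7.5 Mb, with 21 combined peaks, held 5 peaks past 10 and 5 replicate 1 peaks. Over all 27 full bins the mean was 12.7 ± 5.88 combined peaks (SD over bins).

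The bins of the replicates ran together loosely. Across the 27 full bins Pearson r between the counts of replicates 1 and 2 was 0.697 and Spearman rho 0.594. Replicate 1 had only 39 peaks on the chromosome, with 5 of the 27 bins empty, so these values are a description. The bins share libraries within each list.

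Chromosome III as a whole had a higher density of peaks than chromosomes I, II, V and X pooled, by a margin that shrank with chromosome I left out. It held 25.5 peaks per Mb, against 19.9 per Mb on I, II, V and X, a ratio of 1.28 (1.14 to 1.44). The ratio was 1.74 (1.18 to 2.53) in replicate 1 and 1.32 (1.15 to 1.52) in replicate 2. With chromosome I left out, the ratio to II, V and X was 1.12 (0.988 to 1.26) for the combined peaks and 1.15 (0.998 to 1.32) for replicate 2, intervals that include 1. For replicate 1 it was 1.59 (1.06 to 2.33), above 1. Against single chromosomes the combined ratio was 2.73 (2.24 to 3.34) to I, 1.24 (1.07 to 1.43) to V, 1.08 (0.931 to 1.24) to the X and 1.02 (0.879 to 1.18) to II. To chromosome IV, which holds the piRNA clusters, it was 0.409 (0.361 to 0.461). In replicate 2 these ratios were 2.89 (2.29 to 3.68) to I, 1.24 (1.05 to 1.46) to V, 1.14 (0.961 to 1.35) to the X, 1.06 (0.890 to 1.26) to II and 0.381 (0.331 to 0.438) to IV. In replicate 1 they were 2.67 (1.46 to 5.11) to I, 1.56 (0.970 to 2.50) to V, 1.11 (0.693 to 1.78) to II and 0.330 (0.226 to 0.472) to IV. Its ratio to the X was 2.63 (1.48 to 4.82), with an interval above 1 that the other 2 lists did not give. Chromosome III supplied 12.5% of the combined list, 13.0% of replicate 1 and 12.3% of replicate 2.

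By share of peaks that reached 10, the interval of chromosome III overlapped those of I, II, V and X and lay just below that of IV. Chromosome III, with 12.5% of all combined peaks, held 6 of the 25 strongest peaks of the series, 24.0% (9.36 to 45.1). It held 9 of the first 50, 18.0% (8.58 to 31.4), 12 of the first 100 and 31 of the first 300, 10.3% (7.13 to 14.3). Of its peaks 9.12% (6.32 to 12.6) reached 10, against 9.79% (7.15 to 13.0) on V, 10.99% (8.04 to 14.6) on II, 11.3% (6.63 to 17.8) on I, 14.8% (12.7 to 17.0) on IV and 4.55% (2.76 to 7.01) on the X. Peaks past 50 numbered 10 on chromosome III, against 8 on V, 15 on II, 11 on I, 19 on IV and 1 on the X. Median strength was 3.22 on chromosome III and 3.07 (3.04 to 3.23) on I, II, V and X together, and the intervals overlapped.

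Recovery in the replicate lists was close to that of the whole series. Of the 351 peaks, 38 overlapped a replicate 1 peak by at least 1 bp, 10.8% (7.78 to 14.6), against 10.5% of all combined peaks. A replicate 2 peak was overlapped by 252, 71.8% (66.8 to 76.4), against 72.6% of all. In both lists were 37 peaks, 10.5% (7.53 to 14.2) beside 10.2% of all, and in neither were 98, 27.9% (23.3 to 32.9) beside 27.2% of all. These shares are close to the background and say nothing particular to chromosome III.

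Recovery followed strength closely. The first 24 chromosome III peaks were all in replicate 1, and the first 117 were all in replicate 2. The combined list is named as a combination of the replicates, so its strong peaks are not independent of either list. These counts describe the lists and are no separate check of the sites. The strongest peak missing from replicate 1 spanned 5172440 to 5172809, with 11.1 in the combined list and 10.3 in replicate 2. The other 2 peaks past 10 that replicate 1 lacked were 11966993 to 11967231, with 10.7 in the combined list and 7.71 in replicate 2, and 7497894 to 7498665, with 10.6 and 8.31. The strongest peak in neither list was 7978327 to 7978982, with 3.98. Peaks in both lists had a median of 17.6 (10.96 to 29.4), those in replicate 2 alone 3.58 (3.36 to 3.81), and those in neither 2.27 (2.17 to 2.33).

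By strength class, 29 of 32 chromosome III peaks past 10 were in replicate 1, 90.6% (75.0 to 98.0), against 81.4% (76.4 to 85.8) on the other chromosomes. Between 5 and 10 the shares were 7 of 60, 11.7% (4.82 to 22.6), against 6.40% (4.14 to 9.37). In replicate 2, peaks between 3 and 5 were recovered in 92 of 98 cases, 93.9% (87.1 to 97.7), against 86.8% (84.2 to 89.1) elsewhere. Between 2 and 3 they were recovered in 42.2% (34.5 to 50.3), against 44.1% (41.0 to 47.2). In each class the intervals of chromosome III and of the other chromosomes overlapped. Recovery was also similar in the 3 parts of the chromosome, with 73.8% of left, 71.5% of middle and 70.9% of right peaks found in replicate 2.

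**Figure D3:**
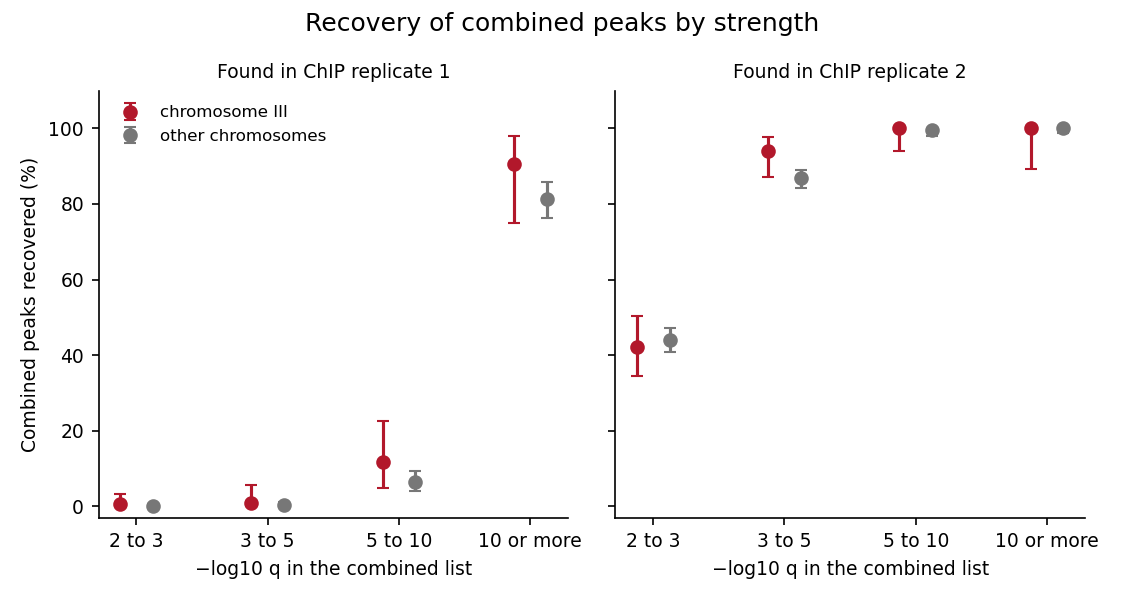
Share of combined peaks found in ChIP replicate 1 (left) and ChIP replicate 2 (right) by class of combined −log10 q, in red for chromosome III and in grey for the other chromosomes, with exact 95% binomial intervals. In replicate 1 recovery is near 0 below a value of 5 and 90.6% on chromosome III at 10 or more, and in replicate 2 it is complete there above 5. The combined list is named as a combination of these replicates and is not independent of them.

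In the other direction, 38 of the 39 replicate 1 peaks on chromosome III overlapped a replicate 2 peak, 97.4% (86.5 to 99.9), close to the 97.3% of all replicate 1 peaks. The exception, 1962467 to 1962869, had 2.26 in replicate 1 and 2.12 in the combined list, where it ranked 330 of 351. All 39 were in the combined list. Of the 264 replicate 2 peaks, 254 were in the combined list, 96.2% (93.1 to 98.2), beside 95.7% of all replicate 2 peaks. The other 10 had values between 2.00 and 2.27. They include the last peak of the chromosome in any list, 13763167 to 13763418, at 2.20, which sets the extent used here.

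At the 37 sites in both lists, the replicates ranked the sites much alike and differed in level. The value was higher in replicate 2 at all 37, with medians of 10.8 in replicate 2 and 4.86 in replicate 1. The ratio of replicate 2 to replicate 1 had a median of 2.74 (2.51 to 3.16) and ran between 1.29 and 5.63. The smallest ratios were at 11466731 to 11467038, with 2.77 in replicate 2 and 2.15 in replicate 1, and at 3377727 to 3378420, with 10.6 and 7.80. Over the 37 sites Pearson r was 0.944 and Spearman rho 0.911, given as a description. The replicate 1 peaks were shorter, with a median of 386 bp against 474 bp in replicate 2 and 528 bp in the combined list, and 35 of the 37 lay wholly inside the combined peak. Sites were thus drawn wider in the list with the higher values.

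Strong peaks tended to be wide and weak ones narrow. Combined widths had a median of 312 bp (294 to 330), the same as the 312 bp (306 to 318) of I, II, V and X, and covered 129 kb, 0.934% of the extent. Median width was 253 bp (242 to 267) for peaks between 2 and 3, 338.5 bp (311 to 367) between 3 and 5, 386.5 bp (346 to 496) between 5 and 10 and 548.5 bp (443 to 694) at 10 or more. Spearman rho between width and strength was 0.667 over the 351 peaks. Strength and width come from the same reads, so this is a description of the peak calls. The parts of the chromosome had overlapping intervals, with medians of 290.5 bp (267 to 332) on the left, 335 bp (303 to 360) in the middle and 305 bp (281 to 328) on the right.

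A peak past 10 departed from this trend with a width of only 239 bp (11966993 to 11967231). The narrowest peak, 9447754 to 9447793, covered 40 bp with a value of 2.14 and was in neither replicate list. Under 200 bp there were 16 peaks, 4.56% (2.63 to 7.30), against 3.87% (2.91 to 5.03) on I, II, V and X. Of these 16, 13 were in neither replicate, 81.3% (54.4 to 96.0), against 25.4% (20.8 to 30.4) of the wider ones. The narrow calls thus belong mostly to the weak, unrecovered part of the list.

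**Figure D4:**
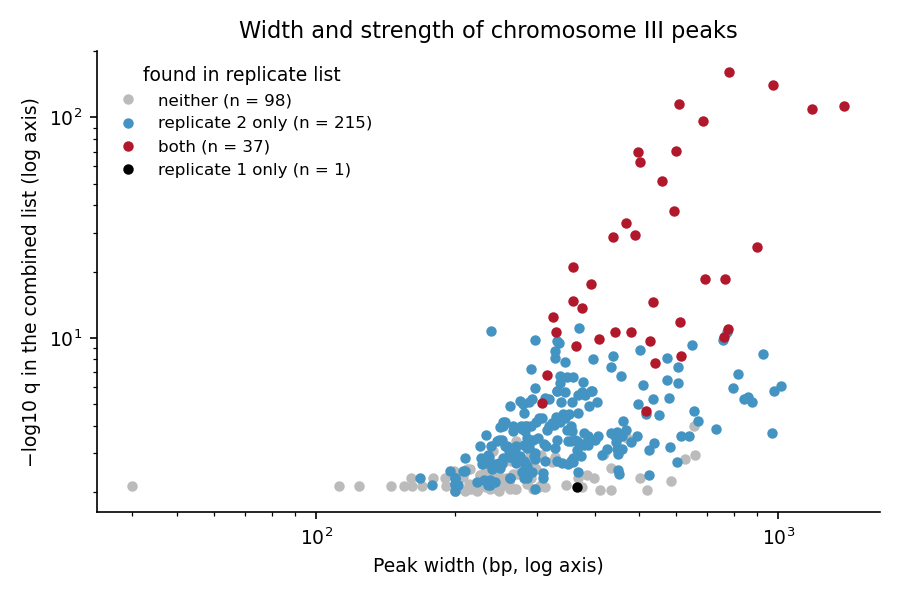
Width (bp, log axis) and −log10 q in the combined list (log axis) of the 351 chromosome III peaks, coloured by the replicate lists in which each was found. Peaks in both lists (red) tend to be strong and wide, but the classes overlap. Those in both lists start at 308 bp and 4.65, and those in replicate 2 alone reach 1012 bp and 11.1. Of the 16 peaks under 200 bp, 13 are in neither list (grey).

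More than 1 in 3 peaks had a close neighbour. The nearest edge of another peak lay within 5 kb for 133 of 351 peaks, 37.9% (32.8 to 43.2), and within 1 kb for 41. On chromosome II the share within 5 kb was 35.3% (30.5 to 40.4), on V 34.7% (30.2 to 39.4), on the X 33.5% (29.0 to 38.2) and on I 26.2% (19.2 to 34.3), all with intervals overlapping that of chromosome III. On IV it was 75.1% (72.5 to 77.7), above it. Distances between successive peaks had a median of 19.1 kb (14.7 to 24.0) on chromosome III, against 20.0 kb (15.8 to 24.5) on II, 26.2 kb (20.7 to 34.9) on V and 24.5 kb (20.1 to 29.2) on the X, all overlapping. The median was 63.7 kb (48.6 to 93.0) on I and 3.63 kb (3.26 to 4.18) on IV, whose intervals did not overlap that of chromosome III. No 2 peaks lay closer than 211 bp, and the shortest distance on the other chromosomes was 205 bp. The share within 5 kb was 32.2% in replicate 2 and 15.4% in replicate 1, the shorter list.

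Linked at 5 kb, the peaks formed 218 single sites and 56 groups, of which 41 had 2 peaks, 11 had 3, 2 had 4 and 2 had 5. A peak past 10 was present in 16 of the 56 groups, and in 27 groups all peaks were below 5. Of the 32 peaks past 10, 18 had a neighbour within 5 kb, 56.3% (37.7 to 73.6), against 115 of the 319 weaker ones, 36.1% (30.8 to 41.6). Grouped peaks had a median strength of 3.60 (3.21 to 3.98), against 2.95 (2.83 to 3.24) for single sites. In both comparisons the intervals overlapped. Across all 351 peaks, strength and the distance to the nearest neighbour had a Pearson r of −0.024 and Spearman rho of −0.073, given as a description of peaks that share libraries.

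The 2 groups of 5 were each led by 1 peak in both replicates. One spanned 8794670 to 8802351 and had 14.5 at 8795552 to 8796087, 9.30 at 8801701 to 8802351 and 3.21 to 3.70 in the other 3 peaks. All 5 were in replicate 2 and only the leading one in replicate 1, with 4.86. The other spanned 11110721 to 11124080 around the site of rank 13, whose 29.4 stood beside 2.86 to 5.01 in its 4 neighbours. All 5 were again in replicate 2 and only the leading one in replicate 1, with 7.11.

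The groups of 4 were unlike each other. That of 11463490 to 11468087 held the site of rank 7 and had lower values peak by peak to its right, with 70.4, 10.7, 5.08 and 2.13 in 4 peaks over 4598 bp. The first 3 were in both replicates, with 21.3, 2.48 and 2.15 in replicate 1 and 51.9, 7.77 and 2.77 in replicate 2, and the last was in neither. That of 5835202 to 5843266 had 4 weak peaks between 2.05 and 2.76, of which 2 were in replicate 2 and none in replicate 1.

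The longest stretches without a peak were 343 kb between 3034910 and 3377726, 294 kb between 8447232 and 8741381 and 289 kb between 9104403 and 9393294. The first is part of the sparse left end and closes with the site at 3377727, with 18.5 in the combined list. The other 2 lie in or next to the middle part, where peaks were otherwise dense, and are bordered by peaks of 2.02 to 5.97. The longest gap was 588 kb on chromosome I, 531 kb on II, 394 kb on V, 317 kb on the X and 298 kb on IV, so that of chromosome III lay within the range of the others.

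**Figure D5:**
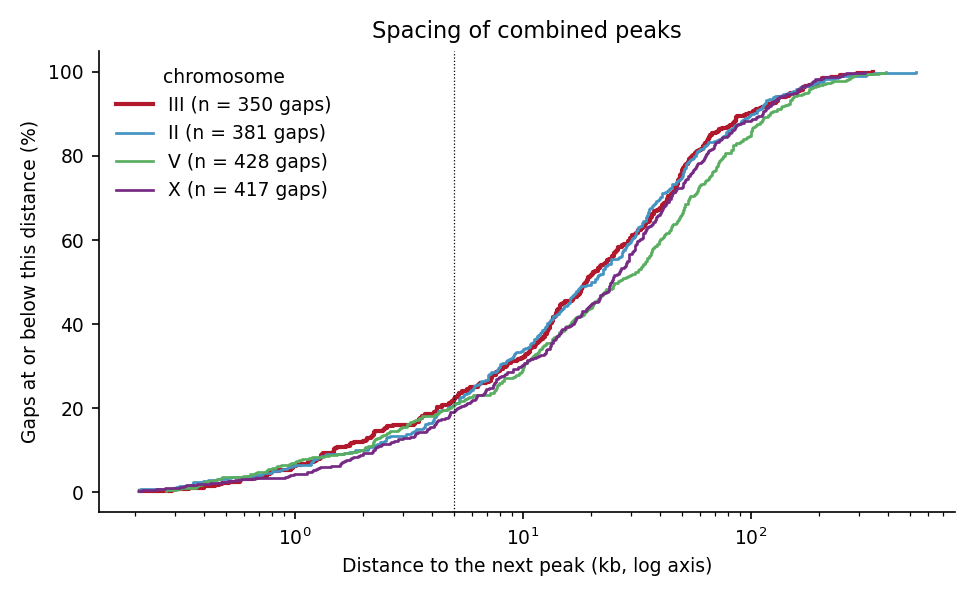
Cumulative share of distances between successive combined peaks (kb, log axis) on chromosome III (red, 350 distances) and on II, V and X. The dotted line marks 5 kb, and the red curve runs with that of chromosome II, with medians of 19.1 and 20.0 kb.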

How the data were processed

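Per the file headers, the 3 peak lists are on WormBase WS220 with PeakSeq as their source, and the authors deposited a q-value for each peak, at most 0.01. The labels' protocol describes crosslinking with 2% formaldehyde, sonication and an anti-GFP antibody. The aligner, the PeakSeq version, the depth and whether the combined list pools reads: not given in the sources used here. Input samples had no list here, so no ChIP value was set beside input.

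From the q-values, −log10 q was computed. Peaks were placed by their midpoint and shared at an overlap of at least 1 bp. The functions were tested on simulated data. The chromosome III peaks, measures and cut-offs were chosen with earlier results of these data known. The peaks named were the 15 strongest, the leaders of each part and of the 2 fullest bins, the widest and narrowest, the largest groups (4, by a tie), the longest gaps and the peaks missing from a list. The other named peaks past 10, and the 2 with the smallest replicate ratio, were added after their values were seen. Alternatives covered the overlap, the centre, merging within 1 kb, the stronger 50%, single lists and bin and neighbour distances. Sequences were not used here. The tools were scipy 1.17.1 and numpy 2.4.6 for statistics, pandas 2.3.3 for tables and matplotlib 3.10.9 for figures, under Python 3.11.15.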

Additional observations from a re-analysis of the deposited data

How the results depend on the processing

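No paired analysis was possible because the input samples, which share numbers with the ChIP samples, had no values here. Only the density ratios could turn direction under the settings run, and neither did. Without chromosome I, the interval of the combined ratio to the other chromosomes included 1 (0.988 to 1.26). Shares, medians and counts have no direction to turn. The share in the centre became 59.5% for the middle 50% and 51.6% for 4 to 10 Mb, wider stretches by construction, and was 38.5 to 39.8% over the single lists. The density ratio to I, II, V and X was 1.12 without chromosome I, 1.32 to 1.74 over the single lists and 1.15 to 1.59 over the single lists without chromosome I, a setting added after seeing the data. Recovery among the stronger 50% was 21.0% in replicate 1 and 97.7% in replicate 2. Median −log10 q was 3.83 with only peaks found in a replicate (likewise added) and 3.14 to 4.86 over the single lists. Median width was 376.5 bp in the stronger 50%, 345 bp in replicate-found peaks and 317 to 392 bp over the single lists. The share with a close neighbour was 21.9% at 2 kb, 50.4% at 10 kb, 32.0% in replicate-found peaks and 15.4 to 32.2% over the single lists. The fullest bin held 48 peaks per Mb, and 14 to 38 over the single lists. The ratio of the first 3.5 Mb to the rest was 0.335 to 0.433 there. The causes were not tested, and with depth unknown, a peak missing from replicate 1 may lie below what that library could show.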
